A study of Mus musculus with 20 samples.

Results

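Calcium leaves the cytosol of a retinal cell through pumps and comes back from its stores through channels, and the 10 genes described here encode both sides of that traffic. They comprise 3 genes for SERCA, the pump that fills the endoplasmic reticulum (ER) with calcium (Atp2a1, Atp2a2 and Atp2a3), 4 genes for PMCA, the pump that expels calcium across the plasma membrane (Atp2b1, Atp2b2, Atp2b3 and Atp2b4), and 3 genes for the receptor that releases ER calcium when it binds inositol trisphosphate (IP3), namely Itpr1, Itpr2 and Itpr3. The genes were chosen by family out of 35006 genes counted in the retina, with the levels of these same libraries and the tests between groups already in view. Atp2a2 also stood on a gene list that the study had drawn up from these same samples. Group differences among the 10 genes are therefore a description of these libraries and no independent evidence.

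Retinal messenger RNA was sequenced from 20 wild-type C57BL/6J mice, an inbred strain, and each mouse gave 1 retina to 1 library. Treated mice drank NACET (N-acetylcysteine ethyl ester, a cysteine derivative that enters cells) over 5 days, at a daily dose of 50 mg/kg, and control mice did not. By the labels, the 4 young controls were 119 days old (2 males, 2 females), the 6 young NACET mice were 129 or 119 days old (4 males, 2 females), the 4 old controls were 668 days old, and the 6 old NACET mice were 668, 581 or 574 days old with 2 mice at each age. All 10 old mice were labelled male, so age and sex were not balanced between groups. Young NACET replicate 6 has 119 days in its title and 129 days in its batch tag. No transgene or deletion was involved in any group.

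Libraries held 17.7 to 31.1 M gene counts (M, 1e+06 counts), and all levels below are given per 1e+06 gene counts of the library (CPM). Photoreceptor markers were present as they should be in retina: the rod genes Gnat1, Pde6b and Nrl averaged 18900, 3390 and 2180 CPM in young controls, and 17600, 3090 and 2090 CPM in old controls. A few libraries stood apart from their groups. Old control replicate 4 was labelled male but had 59555 Xist counts, against 7 to 15 in the other old controls. Old control replicate 2 had 171 CPM of the corneal keratin Krt5, and young NACET replicates 3, 4 and 5 had 63.1, 160 and 73.7 CPM, against at most 20.8 CPM in the other libraries. Lens genes summed to 6100 CPM in old NACET replicate 1, against at most 13.8 CPM elsewhere. These libraries were kept, and the main differences of Itpr2, Itpr3 and Atp2a2 are also given with old control replicate 2, or replicates 2 and 4, left out.

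In resting cells SERCA and PMCA keep cytosolic calcium low against a steep gradient. Receptors coupled to phospholipase C make IP3, IP3 receptors open, and the ER releases calcium that drives secretion, metabolism and gene expression. In the retina, PMCA handles much of the calcium that enters photoreceptor terminals in darkness, and IP3 receptors carry the calcium waves of Müller glia and astrocytes. SERCA1 (Atp2a1) is the pump of fast skeletal muscle, SERCA2 (Atp2a2) the general form also used by heart and neurons, and SERCA3 (Atp2a3) a form of blood cells, endothelium and some epithelia. Among plasma membrane pumps, PMCA1 (Atp2b1) is present in most cells, PMCA2 (Atp2b2) and PMCA3 (Atp2b3) are mostly neuronal, and PMCA4 (Atp2b4) is widespread. Of the IP3 receptors, type 1 (Itpr1) predominates in neurons, type 2 (Itpr2) in astrocytes, Müller glia and heart, and type 3 (Itpr3) in secretory epithelia.

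To see which members make up the retinal calcium machinery, levels were compared between genes per kilobase of exon, since a longer gene collects more reads. Atp2b1 and Atp2a2 were the most abundant, at 61.0 ± 4.50 and 60.7 ± 3.22 CPM per kb (SD, n = 20). The order between these neighbours did not exceed their spread, with Atp2b1 above Atp2a2 in 13 of 20 libraries, and it differed between groups. Atp2b1 lay above in 4 of 4 old controls (61.9 ± 2.52 against 55.9 ± 1.39 CPM per kb) and in 1 of 4 young controls (57.2 ± 4.34 against 60.9 ± 0.857). Atp2b2 followed at 13.9 ± 1.53 CPM per kb, Itpr1 at 8.40 ± 0.767, Atp2b3 at 7.36 ± 0.967, Atp2b4 at 5.55 ± 0.589 and Itpr2 at 2.91 ± 0.658. Itpr1 lay above Atp2b3 in 17 of 20 libraries, and the other steps down to Itpr2 held in all 20. Itpr3 (0.672 ± 0.171 CPM per kb) and Atp2a3 (0.595 ± 0.131) were close to each other, with Itpr3 above in 14 of 20 libraries. Atp2a1 was the lowest, at 0.230 ± 0.0816 CPM per kb.

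**Figure D1:**
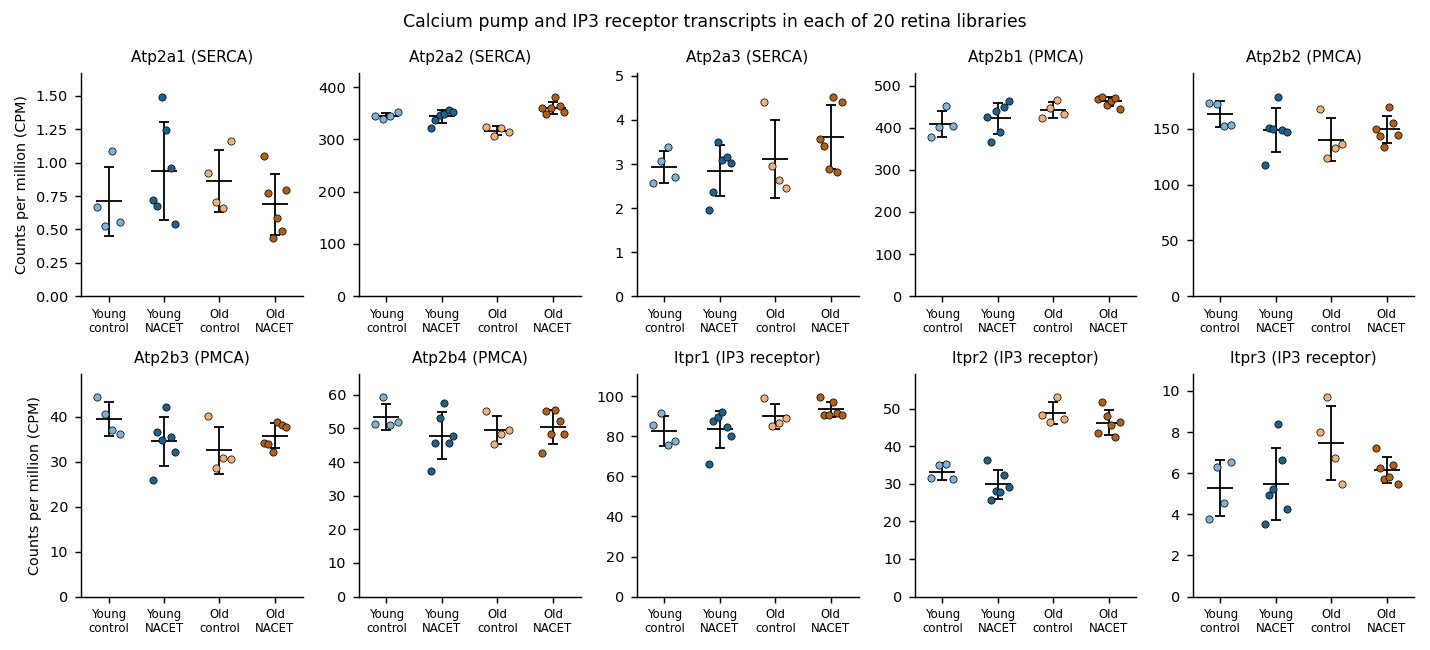
Level of each of the 10 genes in CPM (vertical axis, linear, from 0) in each library of the 4 groups (points), with group mean and SD (bars). Atp2a2 has its lowest mean in the old controls (317 CPM), and the 10 old libraries have more Itpr2 than the 10 young ones.

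The retinal SERCA messenger was almost wholly Atp2a2. Per kilobase, Atp2a2 made up 98.1% to 99.0% of the SERCA family in every library, and the group means ran from 98.5% to 98.8%. Atp2a3 supplied 0.874% to 1.06% on average per group. Atp2a1 rested on 9 to 31 counts per library, and 763 bases (21.9%) of its exons overlap Rabep2 on the opposite strand. Unstranded reads lying wholly there could not be assigned to either gene, while the level per kb used the full exon length. The muscle genes that would accompany Atp2a1 were near the floor as well: 10 skeletal muscle markers summed to between 4.58 and 7.51 CPM, and up to 5 of them were at 0 in a library.

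Within the PMCA family, Atp2b1 made up 66.1% ± 2.96 of the level per kilobase in young controls (SD, n = 4), 69.2% ± 4.05 in young NACET (n = 6), 71.0% ± 3.26 in old controls (n = 4) and 70.7% ± 1.40 in old NACET mice (n = 6). Atp2b2 supplied 14.9% to 17.5% by group mean, Atp2b3 7.72% to 9.49% and Atp2b4 6.10% to 6.84%. Among IP3 receptors, Itpr1 held the largest part in every library, 64.0% to 77.5%, while Itpr3 held 3.81% to 8.51%. Itpr2, the other receptor of this family, is taken up next.

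Aging was followed first by comparing old with young controls. Itpr2 was the member that rose. It lies on chromosome 6 (mm9, 146056821 to 146450745, minus strand), spans 394 kb in 64 exon blocks, and had 454 to 1444 counts per library. Its levels in young controls were 31.4, 35.1, 35.2 and 31.4 CPM. In old controls they were 48.4, 46.5, 53.0 and 47.3 CPM. Every old control lay above every young control. The fitted log2 fold change was 0.50 (SE 0.07, 41.6% higher), with an adjusted p of 0.00369 in edgeR.

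The same age difference was read again in mice that drank NACET, which share no library with the controls. Itpr2 was at 36.3, 25.6, 28.1, 27.9, 32.4 and 29.1 CPM in young NACET mice. Old NACET mice had 43.5, 51.9, 48.0, 45.6, 42.4 and 46.4 CPM. Again no young library reached an old one, and the log2 fold change was 0.58 (SE 0.09, 49.0% higher, edgeR adjusted p = 0.000785). Over the whole study, the 10 young libraries spanned 25.6 to 36.3 CPM and the 10 old libraries 42.4 to 53.0 CPM, and on library sizes scaled by the trimmed mean of M-values (TMM) 26.7 to 38.9 and 41.3 to 52.6. Itpr2 was the single member whose young and old libraries were fully separate, a pattern seen in 1.28% of 16993 genes tested.

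Since age and sex were unbalanced, the Itpr2 difference was also read among labelled males. In controls the log2 fold change was 0.50 (SE 0.09, edgeR adjusted p = 0.056), with 2 young males left. With libraries without Xist only it was 0.51 (SE 0.11, adjusted p = 0.108). A fit that left out old control replicates 2 and 4 gave 0.54 (SE 0.10, adjusted p = 0.0617). The size of the difference stayed between 0.50 and 0.54 in these fits while the call was lost. Under NACET it was 0.59 among labelled males (SE 0.10, adjusted p = 0.00397). In young mice, the 4 females had 29.1 to 35.2 CPM of Itpr2 and the 6 males 25.6 to 36.3 CPM, so the sexes overlapped.

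Because Itpr2 is the gene called in both age comparisons, the 250 bases before its annotated start are shown (RefSeq, GRCm38.p6, chr6:146502224-146502473, minus strand, written 5′ to 3′ along the gene). Capitals mark the sequence CCGCCC, the reverse complement of the GC box GGGCGG.
Itpr2: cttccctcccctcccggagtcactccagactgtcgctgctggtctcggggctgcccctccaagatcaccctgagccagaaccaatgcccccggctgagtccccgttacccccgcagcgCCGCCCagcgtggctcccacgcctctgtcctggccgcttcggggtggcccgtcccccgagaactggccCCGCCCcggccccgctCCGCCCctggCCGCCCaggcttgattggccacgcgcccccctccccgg
Both strands of the window of 300 bases (250 before and 50 after the start) were searched. GGGCGG was matched 5 times in the Itpr2 window, with 4 of the matches in the printed part, and it occurs in 35.7% of all 32851 promoter windows of this length. CCAAT was matched 2 times (37.4% of windows). The core of the antioxidant response element, TGACNNNGC, the site of the NRF2 factor, was not matched in the Itpr2 window, was matched in 2 of the 7 members with a window (Atp2b1 and Atp2b2), and occurs in 12.4% of windows. These 7 members have 10 windows, and a gene with several windows had more chances of a match. The count by gene and the share by window are therefore not alike. The table used had no window for Atp2a2, Atp2b3 and Itpr1. A match is a run of letters and no measured binding.

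Itpr1, the neuronal receptor (chromosome 6, mm9, 108163112 to 108501103), did not pass the test with age. It averaged 82.7 ± 7.42 CPM in young controls (SD, n = 4) and 90.0 ± 6.21 in old controls (n = 4), a log2 difference of 0.07 (SE 0.07, edgeR adjusted p = 0.652). Under NACET it averaged 83.5 ± 9.33 (n = 6) and 93.5 ± 3.92 CPM (n = 6), a log2 difference of 0.12 (SE 0.05, adjusted p = 0.228). The ratio of Itpr2 to Itpr1 counts within a library does not depend on library scaling. This ratio was 0.366 to 0.465 in young controls and 0.489 to 0.610 in old controls, which did not overlap. In old NACET mice it was 0.437 to 0.572. Young NACET mice lay between 0.292 and 0.383 apart from replicate 1 at 0.546, which fell inside the old range. That library combined the highest young level of Itpr2 with the lowest Itpr1, 66.5 CPM.

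**Figure D2:**
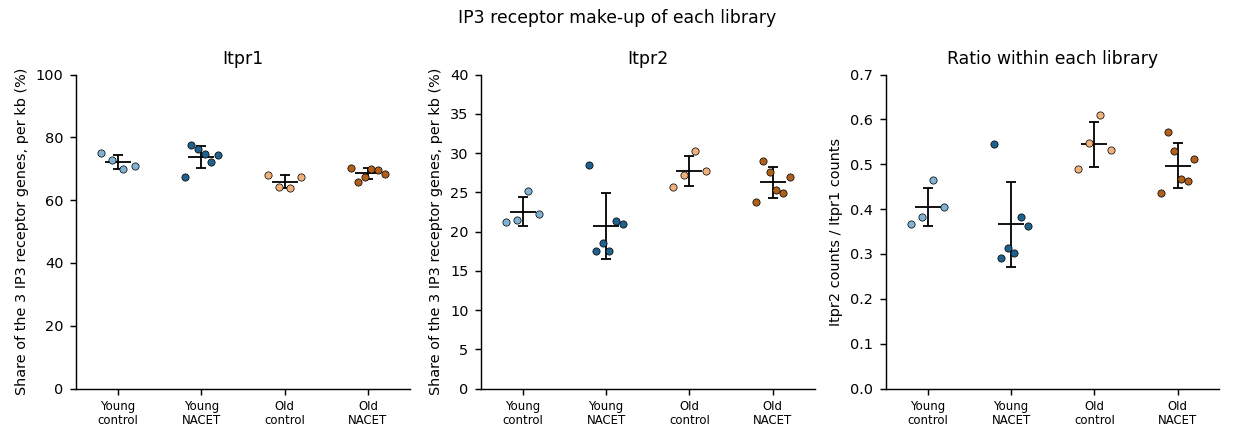
Share of Itpr1 and of Itpr2 among the 3 IP3 receptor genes per kilobase (left and middle, %) and the ratio of their counts (right) in each library (points), with group mean and SD (bars). Itpr2 took 22.5% on average in young controls and 27.7% in old controls, and young NACET replicate 1 stood at 28.5% among values of 17.5% to 21.3%.

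Itpr3, the epithelial receptor, was measured by 73 to 301 counts. In young controls it was at 3.76, 6.28, 4.53 and 6.56 CPM. Old controls had 8.00, 9.68, 6.73 and 5.48 CPM, and the ranges overlapped. The log2 difference of 0.46 (SE 0.20) did not pass the test (edgeR adjusted p = 0.277). The 2 highest libraries of the study for Itpr3 were old control replicate 2 (9.68 CPM) and young NACET replicate 4 (8.38 CPM), which were also the 2 highest for Krt5. After group means were subtracted, the deviations of Itpr3 and of 8 summed corneal and conjunctival epithelium genes had r = 0.678 over 20 libraries that share the dissection. With the 2 libraries highest for Krt5 left out, r was 0.435 over 18. Over 20 libraries, r was nearly as large with smooth muscle and pericyte markers (0.644), rod markers (−0.648) and blood markers (0.556). Over 18 libraries these lists had larger values than the corneal list, at 0.711, −0.786 and 0.453. Cone markers had −0.347 over 20 libraries and −0.716 over 18. Without old control replicate 2 the age difference was 0.29 (adjusted p = 0.569). The part of these tissues in the Itpr3 values was not tested.

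Of the pumps, none passed the adjusted threshold with age in edgeR. Atp2a2, the ER pump (chromosome 5, mm9, 122903531 to 122952183), came nearest by p among them. It was at 346, 340, 346 and 352 CPM in young controls. In old controls it was at 324, 307, 322 and 315 CPM. Every old control lay below every young control, although the fitted difference on TMM-scaled library sizes was 11.4% (log2 −0.17, SE 0.05, edgeR adjusted p = 0.125). Mean CPM was 346 in young and 317 in old controls. DESeq2, which the study used, gave Atp2a2 an adjusted p of 0.00865. Among labelled males the log2 difference was −0.17 (SE 0.08, edgeR adjusted p = 0.409). In 8 fits with a library left out it ran from −0.19 to −0.16. The highest edgeR adjusted p of these fits, 0.301, was without old control replicate 2.

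Atp2b2, Atp2b3 and Atp2b4 had lower means in old controls, without passing the test in edgeR. Atp2b2 (chromosome 6, mm9, 113695663 to 113992607) was at 173, 172, 153 and 153 CPM in young controls. Old controls had 168, 124, 133 and 136 CPM, so that old control replicate 1 lay inside the young range. The log2 difference was −0.27 (SE 0.08, edgeR adjusted p = 0.134, DESeq2 0.0462), and it was −0.34 (edgeR adjusted p = 0.0489) without old control replicate 1. Of 8 fits with a library left out, this alone was called. Without old control replicate 3 the edgeR adjusted p was 0.311. Over 19 alternatives the difference ran from −0.36 to −0.19, with an adjusted p of up to 0.616. Atp2b3, on the X chromosome (mm9, 70748425 to 70816344), averaged 39.5 ± 3.73 CPM in young and 32.5 ± 5.16 CPM in old controls (SD, n = 4 each), a log2 difference of −0.34 (SE 0.10, edgeR adjusted p = 0.137, DESeq2 0.0412). Over 19 alternatives the Atp2b3 difference ran from −0.45 to −0.23, with a call in DESeq2 alone and an adjusted p of up to 0.623. Atp2b4 averaged 53.4 ± 3.94 and 49.6 ± 4.08 CPM (edgeR adjusted p = 0.276).

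Atp2b1 (chromosome 10, mm9, 98377786 to 98488777), which carries most of the PMCA messenger, differed from these isoforms in sign. It averaged 409 ± 31.0 CPM in young controls and 442 ± 18.0 CPM in old controls (log2 0.06, SE 0.07, edgeR adjusted p = 0.696). The summed PMCA level was 86.5 ± 3.27 CPM per kb in young and 87.1 ± 2.46 in old controls (SD, n = 4 each), which differed by less than their spread. Summed IP3 receptor levels were 11.0 ± 0.779 and 13.1 ± 0.640 CPM per kb, and summed SERCA levels 61.7 ± 0.868 and 56.7 ± 1.49.

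In counts, 1 of 10 members was called with age in controls by edgeR (Itpr2, higher), where 1.42% of all 16484 genes tested were called. An unadjusted p under 0.05 was reached by 6 members, 2 with a higher mean in old mice (Itpr2 and Itpr3) and 4 with a lower one (Atp2a2, Atp2b2, Atp2b3 and Atp2b4), against 16.3% of all genes. The number of members at this level was 4 among labelled males, 4 without old control replicate 2 and 1 without old control replicates 2 and 4. DESeq2 called 4 members (Atp2a2, Atp2b2, Atp2b3 and Itpr2), against 4.5% of its genes. Old and young controls did not overlap for 2 members (Atp2a2 and Itpr2), against 11.3% of genes. The median log2 difference of the 10 members was 0.04, that of all genes −0.01. Since the members were chosen with these results in view, nothing is read from the shares.

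Among NACET mice, 1 member was called with age (Itpr2, 4.88% of 16276 genes). Itpr1 and Itpr2 reached an unadjusted p under 0.05 (21.1% of genes), DESeq2 called Itpr2 (7.28% of genes), and the ranges were separate for Itpr2 alone among the members (4.07% of genes). Atp2a2, Atp2b2 and Atp2b3 had log2 differences near 0 in this comparison: 0.02 (SE 0.04), −0.04 (SE 0.07) and 0.01 (SE 0.08).

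**Figure D3:**
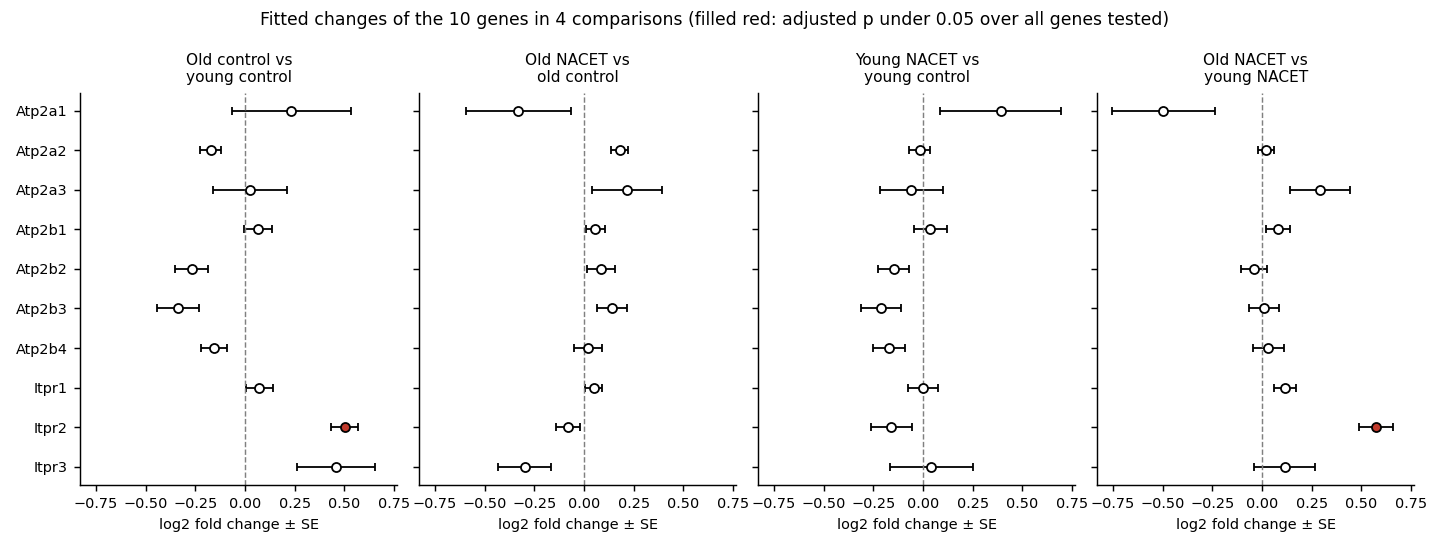
Fitted log2 fold change (horizontal axis) with its SE (bars) of the 10 genes in 4 comparisons; filled red points have an edgeR adjusted p under 0.05 over all genes tested. Itpr2 is filled in both age comparisons, at 0.50 and 0.58, and no gene is filled in the NACET comparisons.

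Markers of cell types were read beside the age differences. For Müller glia, a cell type in which Itpr2 is the typical receptor, the median log2 difference of 4 markers between controls was 0.03, none was called, and their sum was 1760 to 2270 CPM in young and 2040 to 2340 CPM in old controls. These 4 went both ways, and the water channel Aqp4 was at 98.5 ± 12.7 CPM in young and 130 ± 8.25 CPM in old controls (SD, n = 4 each, log2 0.35, edgeR adjusted p = 0.0698). All 4 microglia markers had a fitted difference above 0 in old controls (median log2 0.48, none called, summed 15.4 to 23.2 against 24.4 to 26.1 CPM), and in NACET mice 2 of the 4 were called higher. All 5 retinal ganglion cell markers had one below 0 (median log2 −0.18, none called, summed 568 to 758 against 556 to 726 CPM). The 4 rod markers lay below 0 as well (median log2 −0.17, none called). All 5 retinal pigment epithelium markers lay above 0 (median log2 0.96, none called), and so did all 6 tested corneal and conjunctival markers (median log2 3.67, none called by edgeR). None of the glial, ganglion cell and rod markers was at 0 in any library. The part of these cells in the differences of Itpr2, Atp2a2, Atp2b2 and Atp2b3 was not tested, and in whole retina fewer cells of a type and less RNA per cell cannot be told apart.

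NACET in old mice was examined next. Atp2a2 in old NACET mice was at 360.5, 348, 360.5, 381, 363.5 and 352 CPM, and all 6 libraries lay above the 4 old controls (307 to 324 CPM). The log2 fold change was 0.18 (SE 0.04, 13.2% higher), with an edgeR adjusted p of 0.0794 that missed the threshold and a DESeq2 adjusted p of 6.09e-05. The 3 age cohorts of old NACET mice were at 348 to 360.5 CPM (668 days), 360.5 to 381 CPM (581 days) and 352 to 363.5 CPM (574 days), all above the controls of 668 days. With the 668-day NACET mice only, the log2 difference was 0.15 (SE 0.06, edgeR adjusted p = 0.569). With old control replicates 2 and 4 left out it was 0.17 (SE 0.06, adjusted p = 0.619). Neuronal markers also had differences above 0 here, all 5 of retinal ganglion cells (median log2 0.17) and all 4 tested of amacrine cells (median log2 0.16), none of them called, and within groups Atp2a2 deviated with the ganglion cell markers at r = 0.464 over 20 libraries. Their part in the Atp2a2 difference was not tested. The old NACET level, 361 ± 11.5 CPM (SD, n = 6), was above the 346 ± 4.86 CPM of young controls (n = 4) in CPM, while on TMM-scaled library sizes both means were 353 CPM.

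Itpr2 did not return toward the young level under NACET by any amount that passed the test: old NACET mice averaged 46.3 ± 3.41 CPM (SD, n = 6) and old controls 48.8 ± 2.94 (n = 4), a log2 difference of −0.08 (SE 0.06, edgeR adjusted p = 0.586). Itpr3 averaged 6.13 ± 0.629 CPM in old NACET mice against 7.47 ± 1.80 in old controls (log2 −0.30, SE 0.13, edgeR adjusted p = 0.328). The Itpr3 value moved to −0.13 (adjusted p = 0.763) when the keratin-rich old control replicate 2 was left out, and 3 of 6 tested corneal and conjunctival genes were called lower in old NACET mice, and 0 of 6 without old control replicates 2 and 4. Atp2b3 averaged 35.8 ± 2.73 against 32.5 ± 5.16 CPM (log2 0.14, SE 0.08, adjusted p = 0.412). Atp2b1 averaged 463 ± 11.1 against 442 ± 18.0 CPM (log2 0.06, SE 0.05, adjusted p = 0.628).

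No member was called by edgeR in old mice under NACET, where 0.543% of 16562 genes were called. The count of 90 genes behind this share was 8 without old control replicate 2, 15 without replicate 4, 0 without both, and 12 to 110 with any other library left out. None was called with the 668-day NACET mice only or with age in days as a covariate. Atp2a2 and Itpr3 had an unadjusted p under 0.05 (14.4% of genes), with a higher and a lower mean. DESeq2 called 1 member (Atp2a2, 2.25% of genes), and 1 had separate ranges (Atp2a2, 3.57% of genes). These values share the old controls with the age comparison, so that a low control group moves both in opposite directions.

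In young mice NACET was followed by no call among the members or among all genes (0% in edgeR, while 4.36% of 16588 genes had an unadjusted p under 0.05, and 0% in DESeq2). No member reached an unadjusted p under 0.05 in edgeR. Atp2a2 was at 322, 338, 348, 349, 357 and 353 CPM in young NACET mice, a log2 difference from young controls of −0.02 (SE 0.05), and these ranges overlapped. Atp2b2, Atp2b3 and Atp2b4 had log2 differences of −0.15, −0.21 and −0.17 (SE 0.08, 0.10 and 0.08), each with an edgeR adjusted p of 1. No member had separate ranges in young mice, against 0.723% of genes.

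The difference between the NACET responses at the 2 ages was tested as an interaction over all 20 libraries. For Atp2a2 the response in old mice exceeded that in young mice by 0.19 on the log2 scale (SE 0.06), with an unadjusted p of 0.0036, an edgeR adjusted p of 0.368 and a DESeq2 adjusted p of 0.0186. For Atp2b3 the difference was 0.35 (SE 0.13, edgeR adjusted p = 0.645), and for Itpr2 it was 0.07 (SE 0.12, adjusted p = 0.983). EdgeR called no gene at all here (0% of 16993), and 6.19% had an unadjusted p under 0.05, among them Atp2a2 and Atp2b3. DESeq2 called 0.403% of its genes, and Atp2a2 was the 1 member.

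Libraries of the same group also differed from one another in an ordered way. After the group means of log2 CPM were subtracted, Atp2b2 and Atp2b3 deviated together (r = 0.931, n = 20 libraries), and Atp2b2 with Itpr1 (r = 0.792) and with Atp2b4 (r = 0.678). Atp2b1 deviated in the opposite direction to Atp2b3 (r = −0.621), Itpr1 (r = −0.592) and Atp2b2 (r = −0.540), and in the same direction as Itpr2 (r = 0.594). Atp2b4 deviated with Atp2b3 (r = 0.620) and Itpr1 (r = 0.523) as well. These correlations are over libraries that share scaling and depth, and are given as a description.

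Young NACET replicate 1 stood farthest out on this pattern. Its levels were 117 CPM of Atp2b2, 25.9 of Atp2b3, 37.3 of Atp2b4 and 66.5 of Itpr1, each the lowest of the 20 libraries. Without it, r was 0.908 for Atp2b2 with Atp2b3, 0.709 for Atp2b2 with Itpr1 and −0.606 for Atp2b1 with Atp2b3, but −0.349 in place of −0.612 for Itpr1 with Itpr2. Those of Atp2b4 were 0.565 with Atp2b2, 0.481 with Atp2b3 and 0.295 with Itpr1. The relation of Itpr1 to Itpr2 and to Atp2b4 therefore rested in large part on this library.

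**Figure D4:**
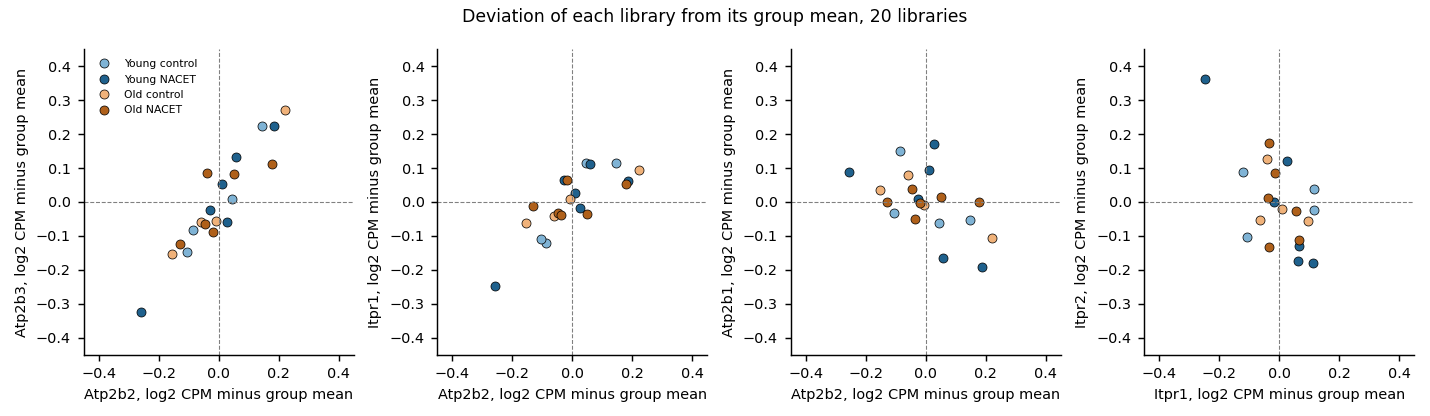
Deviation of each of 20 libraries from its group mean in log2 CPM, for 4 pairs of genes (points coloured by group). Atp2b2 and Atp2b3 lie along a rising line (r = 0.931), Atp2b2 and Atp2b1 along a falling one (r = −0.540), and 1 young NACET library lies alone at the upper left of the Itpr1 and Itpr2 plot.

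Cell-type markers deviated with the same pattern. Atp2b2 deviated with the summed markers of retinal ganglion cells (r = 0.573), amacrine cells (r = 0.517) and endothelium (r = 0.495). It deviated against those of cones (r = −0.576) and rods (r = −0.478). Itpr1 deviated with endothelium markers as well (r = 0.577). Atp2b1 deviated with bipolar cell markers (r = 0.507) and against ganglion cell markers (r = −0.512), all over 20 libraries. Itpr2 had r = −0.001 with Müller glia markers and r = −0.593 with microglia markers, so that within groups it went up with neither list. Rod markers (r = 0.472) and bipolar cell markers (r = 0.467) deviated with Itpr2. The part of these cells in the pattern of the pumps and receptors was not tested.

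Outside the family, the 3 genes whose deviations were most like those of Atp2b3 were Ank1 (r = 0.955), Gpr153 (r = 0.947) and Pcnxl2 (r = 0.945). For Atp2b2 they included N28178 (r = 0.951) and Dos (r = 0.934). Atp2b1, the pump that deviated against both, had Nipbl (r = 0.932), Ccdc66 (r = 0.922) and Dmd (r = 0.914). A likeness above 0.8 was shared by 156 of 16983 genes for Atp2b2 and 134 for Atp2b1, but by 5 for Itpr2 (Sike1 first, r = 0.886) and 14 for Atp2a2 (Hdac2 first, r = 0.862). For Itpr3 the leading genes were Als2cl (r = 0.912), Notch3 (r = 0.901) and Klf4 (r = 0.855).

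Other genes of calcium handling were read from 10 lists by role, holding 64 genes, of which 62 were in the files and 58 passed the filter. With age in controls, 1 of the 58 was called, where edgeR called 1.42% of all genes. This was Slc8a3, a sodium-calcium exchanger of the plasma membrane, fell from 77.3 ± 2.84 to 64.7 ± 4.12 CPM (SD, n = 4 each, log2 −0.31, SE 0.06, edgeR adjusted p = 0.0282). The call held in 2 of 8 fits with a library left out and was lost without young control replicates 3 or 4 or without any old control. Among labelled males the log2 difference was −0.27 (adjusted p = 0.212), and without old control replicates 2 and 4 it was −0.29 (adjusted p = 0.298). Its relative Slc8a1 averaged 30.9 ± 1.95 and 26.6 ± 3.00 CPM (edgeR adjusted p = 0.131, DESeq2 adjusted p = 0.0462). In all, 8 of 9 exchangers had a fitted difference below 0 with age, among them the rod exchanger Slc24a1, the highest of the list at 2430 CPM in young controls (log2 −0.16, adjusted p = 0.376), and the list's median log2 difference was −0.09 against −0.01 over all genes.

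In old mice under NACET, 3 of 58 were called, where edgeR called 0.543% of all genes. Among them, Hspa5 and Calr stood, like Atp2a2, on the gene list that the study had drawn up from these samples. The count is therefore a description. The calcium-binding ER chaperones Hspa5 and Calr rose, from 263 ± 19.0 to 344 ± 20.3 CPM (log2 0.38, SE 0.06, edgeR adjusted p = 0.0295) and from 272 ± 19.1 to 353 ± 23.1 CPM (log2 0.37, SE 0.07, adjusted p = 0.0384, SD, n = 4 and 6). The pigment cell exchanger Slc24a5 fell from 6.77 ± 0.864 to 4.83 ± 0.426 CPM (log2 −0.50, SE 0.10, adjusted p = 0.0456). Of the 5 retinal pigment epithelium markers, all 5 had a fitted difference below 0 in old NACET mice (median log2 −0.76, none called, summed 90.3 to 197 against 29.7 to 110 CPM), and their part in the Slc24a5 value was not tested. Calls held in 6 of 10 fits with a library left out for Hspa5 (lost without old control replicates 2 or 4 or old NACET replicates 3 or 4), in 3 of 10 for Calr (held without old control replicate 4 or old NACET replicates 1 or 2) and in 1 of 10 for Slc24a5 (held without old control replicate 3). None of the 3 was called with the 668-day NACET mice only (log2 0.39, 0.27 and −0.50 for Hspa5, Calr and Slc24a5, edgeR adjusted p = 0.524, 0.538 and 0.532), with age in days as a covariate (adjusted p = 0.234, 0.374 and 0.368) or without old control replicates 2 and 4 (log2 0.37, 0.47 and −0.43, adjusted p = 0.39, 0.176 and 0.543). In young controls Hspa5 averaged 318 ± 49.9 and Calr 319 ± 35.5 CPM, above the old controls without passing the test (edgeR adjusted p = 0.147 and 0.125 with age, DESeq2 adjusted p = 0.0494 and 0.036). Of the 11 ER calcium-binding genes, 8 had a fitted difference below 0 with age in controls (median log2 −0.08) and 9 had one above 0 under NACET in old mice (median log2 0.07), in comparisons that share the old controls.

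**Figure D5:**
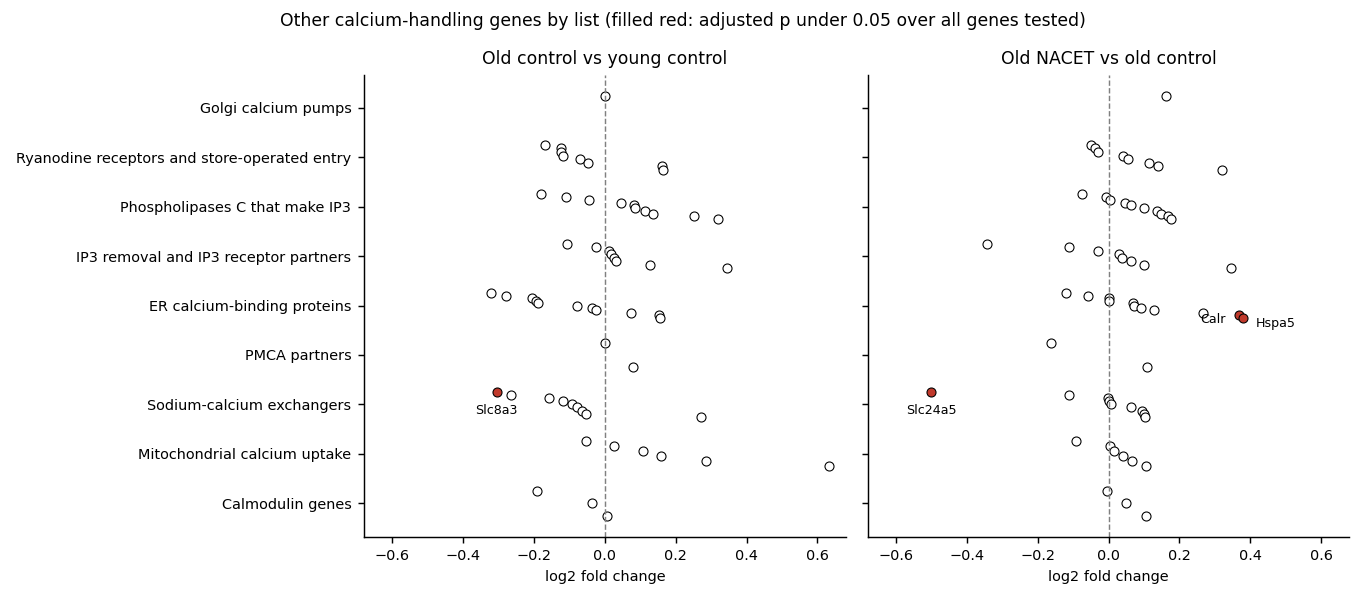
Log2 fold change of the other calcium-handling genes that passed the filter (points), by list, for old against young controls (left) and old NACET against old controls (right); filled red points have an edgeR adjusted p under 0.05 over all genes tested. Slc8a3 is filled on the left at −0.31, and Hspa5 (0.38), Calr (0.37) and Slc24a5 (−0.50) are filled on the right.

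The genes that make and remove IP3 showed no call in these comparisons. Of 10 phospholipase C genes, which cut a membrane lipid to release IP3, 7 had a fitted difference above 0 with age in controls. Plcb4, the highest of them at 138 CPM in young controls, had the smallest p (log2 0.11, edgeR adjusted p = 0.311). In old mice under NACET, 8 of 10 lay above 0, with Plcg1 at the smallest p (log2 0.14, adjusted p = 0.193). Of 8 tested genes for IP3 removal or for partners of its receptor, 6 lay above 0 with age in controls. Mrvi1 (now Irag1) had the smallest p (log2 0.34, adjusted p = 0.341) and Ahcyl1 the highest level, 532 CPM (log2 0.02, adjusted p = 0.924).

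Ryanodine receptors and the store-operated entry genes likewise had no call with age in controls or under NACET in old mice (8 tested). Ryr2, the ryanodine receptor with the highest level, averaged 145 CPM in young controls (log2 −0.12 with age, edgeR adjusted p = 0.564), and Stim2, the ER calcium sensor, had the smallest p (log2 0.16, adjusted p = 0.321). Under NACET in old mice Ryr1 had the smallest p (log2 0.32, adjusted p = 0.193). Among 6 genes of mitochondrial calcium uptake, Efha2 (now Micu3) had the smallest p with age (63.5 ± 4.23 to 80.1 ± 6.71 CPM, log2 0.29, edgeR adjusted p = 0.0993, DESeq2 0.0369). The Golgi calcium pump Atp2c1 was at 191 and 198 CPM in young and old controls (adjusted p = 0.996), and at 223 CPM in old NACET mice (log2 0.16, adjusted p = 0.228).

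Partners of the pumps had no call or were not measurable. Bsg and Nptn, the membrane glycoproteins that associate with PMCA, had log2 differences of 0.00 and 0.08 with age (edgeR adjusted p = 0.996 and 0.495), and −0.16 and 0.11 under NACET in old mice. The SERCA inhibitors Pln and Sln were at most 0.142 CPM in every group mean and did not pass the filter. The calmodulin genes, whose product activates PMCA, had no call, and Calm3 had the smallest p with age (log2 −0.19, adjusted p = 0.246).

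Between old and young NACET mice, 3 of 58 genes were called, near the 4.88% called over all genes. Stim2 was higher in old mice, 34.6 ± 1.98 against 29.5 ± 0.383 CPM (SD, n = 6 each, log2 0.18, edgeR adjusted p = 0.0422), and so was the phospholipase Plcd3, 117 ± 5.78 against 96.0 ± 7.82 CPM (log2 0.23, adjusted p = 0.0487). Slc24a5 was lower, at 4.83 ± 0.426 against 5.92 ± 0.607 CPM (log2 −0.34, adjusted p = 0.0393). In fits with a library left out, Stim2 was called in 3 of 12, Plcd3 in 2 and Slc24a5 in 3, and each was lost without young NACET replicates 3, 4, 5 or 6 or without any of old NACET replicates 1 to 4. None of them was called among labelled males (adjusted p = 0.0791, 0.118 and 0.0912). No gene of the lists was called in young mice under NACET or in the interaction, where 3 and 4 of 58 had an unadjusted edgeR p under 0.05, beside 4.36% and 6.19% of all genes, and DESeq2 called none.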

How the data were processed

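Counts of reads per gene were made by the authors and deposited for each of 20 libraries of retinal polyadenylated RNA. Per the labels and the methods, FastQC, TopHat2 2.1.0 with Bowtie (mm9) and HTSeq 0.11.2 were used, with unstranded counting over exons. The annotation release behind the counts was not given in the sources used here. A row without a gene name (0.000941% to 0.00218% of counts) was left out. Gene counts per library ran from 17.7 to 31.1 M.

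CPM is the count divided by all gene counts of the library, times 1e+06. Levels per kb used merged exons of GENCODE vM1 (mm9). Pairs of groups were tested with the quasi-likelihood test of edgeR 4.0.16 (R 4.3.3; TMM, filterByExpr), and the interaction over all 20 libraries. P-values were adjusted over all genes tested by the Benjamini-Hochberg method and called under 0.05, and the test was tried on simulated data. DESeq2 1.42.0 and the other settings were alternatives. The SE was the log2 fold change divided by the square root of F. All 10 members passed this filter in every main fit. Atp2a1 was missing from an alternative fit in each comparison of a pair of groups, for example with 18 alternatives for age in controls against 19 for Itpr2.

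The members and all lists were chosen with earlier results of these data known. All members were named. From each list of other genes, called genes were named, or, where none was called, the gene with the smallest p and the gene with the highest mean CPM, and a few uncalled relatives were added after their values were seen. A few genes that this rule would name are not reported here. No marker of any cell-type list, cones, bipolar, horizontal, endothelial, smooth muscle and blood cells included, was called with age in controls by edgeR.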

Additional observations from a re-analysis of the deposited data

Results flagged for a closer look

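Atp2b4 in young control replicate 2 was at 59.2 CPM, while the other young controls lay between 51.1 and 51.8 CPM, so that 0.917 of the range of the group was the gap below this library. Of 40 groups of values (10 genes in 4 groups), 1 stood apart in this way, and chance alone gives about 1 in 20.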

How the results depend on the processing

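Among members, 1 was called with age in controls, against 4 with DESeq2 (Atp2a2, Atp2b2, Atp2b3 and Itpr2), 2 in a fit of all 4 groups (Atp2a2 and Itpr2), 0 among labelled males, and 1 to 2 with a library left out (Atp2b2 joined without old control replicate 1). In alternatives chosen after seeing the data, 0 were called in libraries without Xist and 0 without old control replicates 2 and 4. DESeq2 called 1 member (Atp2a2) against 0 both under NACET in old mice and in the interaction. Itpr2 was called with age in controls in 16 of 19 alternatives (log2 0.46 to 0.54; adjusted p 5.57e-08 to 0.108) and in NACET mice in 22 of 22. Atp2a2 was called under NACET in old mice in 1 of 20 (log2 0.15 to 0.19; adjusted p 6.09e-05 to 0.619).

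Of the other calcium genes, 1 was called with age in controls, against 5 with DESeq2 and 0 to 2 with a library left out. Under NACET in old mice 3 were called, against 3 with DESeq2 and 0 to 2 with a library left out. Between old and young NACET mice 3 were called, against 4 with DESeq2 and 0 to 3 with a library left out. Leaving out libraries, like the other settings given for these genes, was chosen after seeing the data for these lists. Fewer samples entered each such fit. Atp2a2 in young controls averaged 353 CPM on TMM-scaled library sizes against 346. Of 1116 alternative fold changes of members, 1055 kept direction and side of the threshold, 51 changed sign without a call, 7 became called and 3 lost their call; no called value changed direction.

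Replicate numbers did not pair the samples: deviations of same-numbered libraries correlated at −0.157 to 0.123 over the 4 comparisons. With the replicate block, Itpr2 had log2 fold changes of 0.50 (adjusted p = 0.012) and 0.58 (adjusted p = 0.0049) with age, Atp2a2 0.19 (adjusted p = 0.151) under NACET in old mice, and the number of members called was the same. Of the other calcium genes, Hspa5 kept its call (adjusted p = 0.0264) under this block, and the others lost it (adjusted p 0.054 to 0.129). Atp2a1, at 9 to 31 counts per library, was limited by depth.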
